A study of Homo sapiens with 6 samples.

Results

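The deoxynucleotide and pyrimidine synthesis enzymes examined here are 9 genes, RRM1, RRM2, TYMS, TK1, DUT, DTYMK, CAD, UMPS and DHODH, out of 26906 rows in the deposited expression table. They were taken as the rows whose name equals one of these symbols, and all 9 had a row of their own. The RNA came from BE-(2)-C, an established human neuroblastoma line in which MYCN is amplified. The cells received either a control siRNA or an siRNA against ELF4, which encodes an ETS transcription factor, and polyA-selected RNA was sequenced 48 hours later, with 3 libraries in each group. Both groups are the same single cell line and differ, per the labels, in the siRNA alone. How many siRNAs against ELF4 were used, and their sequences, is not stated in the labels.

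Cells need deoxynucleotides in balanced supply to copy their DNA. Pyrimidines are built from simple precursors to UMP by CAD, DHODH and UMPS in turn, and ribonucleotide reductase, made of a large subunit (RRM1) and a small subunit (RRM2), then reduces ribonucleotides to deoxyribonucleotides. The thymidine branch is served by DUT, which turns dUTP into dUMP, by TYMS, which methylates dUMP to dTMP, by TK1, which recovers dTMP from thymidine, and by DTYMK, which phosphorylates dTMP. Several of these genes, RRM2, TYMS and TK1 among them, are known to peak in S phase and to be targets of E2F factors, whereas CAD is a long-known target of MYC proteins and DHODH sits in the inner mitochondrial membrane.

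Short stretches of the members' promoters are shown as a description of the 9 genes. Each stretch holds 1 or 2 of the matches to known promoter elements found in its gene, and for some genes not all matches are shown. They come from the RefSeq promoter table (GRCh38.p14, 250 bases before to 50 after each annotated start), in which all 9 genes matched, with 14 windows between them. Each stretch has 30 bases, 5′ to 3′ in the direction of the gene, with the matched element in capitals, and positions count from the transcript start. For RRM2, 3 CCAAT elements stood at -123, -93 and -66 from 1 start, each followed by the same bases gggaaggg. The RRM2 stretches lie on the plus strand at chr2:10122604-10122633, chr2:10122634-10122663 and chr2:10122661-10122690. The TK1 stretch lies on the minus strand at chr17:78187112-78187141 and holds CCAAT on the opposite strand, 1 of 2 such matches in that window. That of DTYMK, on the minus strand at chr2:241686886-241686915, holds CCAAT beside TTCGAA, a form of the cell cycle homology region (CHR) known from late cell cycle genes. Those of TYMS (chr18:657603-657632) and DUT (chr15:48332152-48332181), both on the plus strand, hold E2F elements. The DHODH stretch (chr16:72008573-72008602, plus strand) holds CACGTG, the E-box that MYC proteins can bind, while CCAAT at -22 of that gene is not shown. Those of RRM1 (chr11:4094645-4094674) and CAD (chr2:27217119-27217148), both on the plus strand, hold CCAAT, in CAD on the opposite strand. That of UMPS (chr3:124730433-124730462, plus strand) holds TTTGAA, another form of the CHR.
RRM2 at -123: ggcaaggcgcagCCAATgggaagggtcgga
RRM2 at -93: ggcatggcacagCCAATgggaagggccggg
RRM2 at -66: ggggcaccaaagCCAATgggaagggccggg
TK1 at -77: ggccgggcgctgATTGGccccatggcggcg
DTYMK at -92: ggccccggCCAATcccTTCGAAtttggccg
TYMS at -39: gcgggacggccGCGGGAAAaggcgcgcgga
DUT at -42: ctgGCGGGAAAtttcggtTTTGGCGCgctc
DHODH at -159: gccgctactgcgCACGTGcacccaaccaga
RRM1 at -28: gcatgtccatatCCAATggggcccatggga
CAD at -250: ATTGGtgttgttgcctataataaacacttt
UMPS at -7: ggcgcctgggaaTTTGAAgcaaacaggcag

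The search covered both strands of all 35116 windows. An E2F element, written as TTTCCCGC, TTTGGCGC, TTTCGCGC or TTTGCCGC, was found in 2 of the 9 genes (TYMS and DUT) and in 3.99% of all 27305 gene symbols with a window. A symbol with several windows counts once if any of them holds a match. By window, 2 of the 14 of the members held an E2F element, beside 3.31% of all windows. CCAAT was found in 6 genes (RRM1, RRM2, TK1, DTYMK, CAD and DHODH), beside 39.7% of all symbols. These include CAD and DHODH, the genes that were not called in the results below. TTTGAA or TTCGAA was found in 4 (RRM1, DUT, DTYMK and UMPS), beside 19.5%. CACGTG was found in DHODH alone of the 9, beside 8.77% of all symbols, and the ETS element CCGGAAGT in 0 of the 9, beside 4.95%. Among the 21 matches, 0 pairs overlapped. These matches describe letters in a window and say nothing of which factor was bound.

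ELF4 itself served as a check of the labels. The control libraries held 42.4, 38.8 and 46.8 normalised reads of it (replicates 1 to 3) and the ELF4 siRNA libraries 5.5, 5.6 and 3.1, so that 11.1% of the control level remained. The depth of the 6 libraries was 23148635 to 38097986 reads. The line showed the adrenergic markers of neuroblastoma, as the mean count of all 14 listed genes was 100 or more, MYCN and CHGA among them. After ELF4 siRNA 6 of the 14 rose and 4 fell, beside 20.7% and 24.4% of all genes tested. MYCN fell from 78443 to 70994 (-0.14, limma adjusted p = 0.0189), and CHGA rose from 71155 to 104374 (0.55, adjusted p = 3.75e-07). Of 23 markers of blood, endothelial, epithelial, fibroblast and Schwann cells, 16 had a row and 4 had a mean of at least 100. The summed level of those 16 was 3971 to 4075 in control libraries and 3837 to 4056 after ELF4 siRNA. Single markers moved in opposite directions within this sum, since of the 9 tested 5 rose and 2 fell. PDGFRB fell from 1989 to 875 (-1.19), while DCN (968 to 1722, 0.83), COL1A1 (0.48) and LUM (0.31), which are fibroblast markers too, rose. The part of these markers in the results below was not tested, and PECAM1, CD3E and KRT5 had no row of their own.

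Of the 9 enzymes, 7 fell after ELF4 siRNA and the other two, CAD and DHODH, were not called. RRM1, RRM2, TYMS, TK1, DUT, DTYMK and UMPS were left at 73.0% to 81.1% of their control level, and in each of them every ELF4 siRNA library lay below every control library. CAD stood at 108% and DHODH at 110% of the control mean, with overlapping groups. Over all 20339 genes tested, 45.1% were called (24.4% fell and 20.7% rose), and the groups did not overlap in 53.6%, so a separation of the groups was common in these libraries. The median log2 fold change was -0.32 over the 9 enzymes and 0.00 over all genes. A fold change here sets ELF4 siRNA over control siRNA on the log2(value + 1) scale, tested with limma across all genes at a Benjamini-Hochberg adjusted p of 0.05. All 7 falls were below 0.5 in size on the log2 scale, a limit that 7.67% of all genes passed downwards. The labels do not say that the 3 libraries of a group came from separate cultures, so the p-values cover only library-to-library spread, which could be technical.

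**Figure D1:**
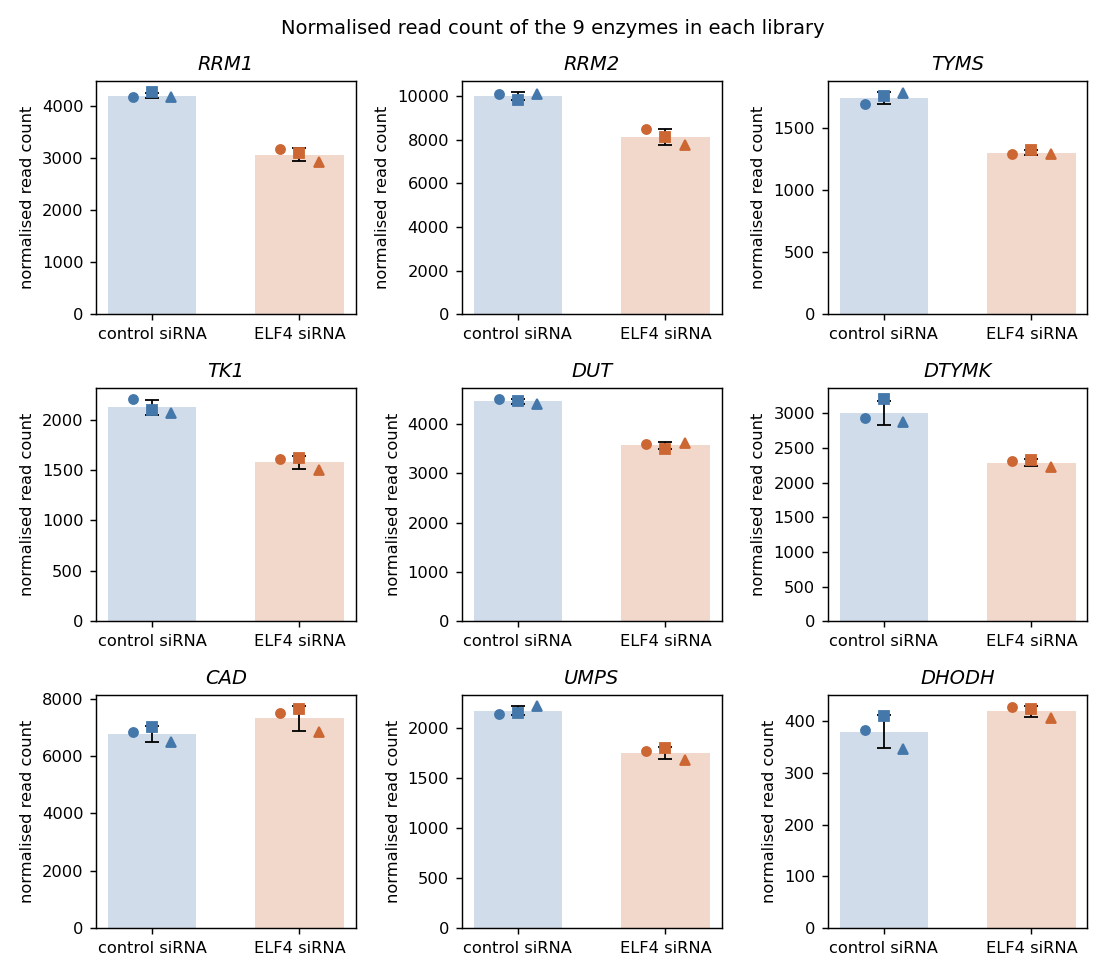
Normalised read count (y axis, from 0) of each of the 9 enzymes in the 3 control siRNA and 3 ELF4 siRNA libraries. Circles, squares and triangles are replicates 1, 2 and 3, bars are means and whiskers are SD. The groups are separated in 7 panels and overlap in those of CAD and DHODH.

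The mRNA counts of the ribonucleotide reductase subunits RRM1 and RRM2 were both lower. RRM1, the large subunit that holds the catalytic and regulatory sites, had counts of 4170.2, 4267 and 4167 in control replicates 1 to 3 and of 3175, 3105 and 2922 in ELF4 siRNA replicates 1 to 3. The lowest control stood 993 above the highest ELF4 siRNA library. Its mean went from 4201 ± 56.5 to 3067 ± 131 (SD, n = 3), a log2 fold change of -0.45 (SE 0.04, adjusted p = 1.23e-06), the largest fall among the 9. RRM2, the small subunit that carries the tyrosyl radical and whose promoter repeats CCAAT above, had counts of 10100.4, 9804 and 10099 in the controls and 8482, 8097 and 7757 after ELF4 siRNA. Its mean went from 10001 ± 171 to 8112 ± 363 (-0.30, SE 0.04, adjusted p = 3.45e-05), the smallest of the 7 falls.

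The unequal falls of the subunits were compared as a ratio within each library, which does not depend on how a library was scaled. The log2 ratio of RRM2 over RRM1 was 1.28, 1.20 and 1.28 in the controls and 1.42, 1.38 and 1.41 after ELF4 siRNA. The mean ratio was higher by 0.15 on the log2 scale, and the groups did not overlap. RRM2B, the alternative small subunit known as a p53 target that supplies deoxynucleotides outside S phase, went from 534 ± 31.5 to 344.0 ± 10.5 (-0.63, adjusted p = 3.14e-06). The log2 ratio of RRM2 over RRM2B was therefore higher in every ELF4 siRNA library, at 4.51 to 4.59 against 4.19 to 4.30, a difference of 0.33. An exact two-sided permutation test gave p = 0.1 for each of these ratios (0.167 after adjustment over the 5 ratios planned, of which 4 are given here), the smallest p that 3 libraries against 3 allow, so no ratio could reach 0.05.

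In the thymidine branch all 4 enzymes fell, by 0.32 to 0.43 on the log2 scale. TYMS had counts of 1692, 1755 and 1782 in the controls and 1291, 1325 and 1294 after ELF4 siRNA, and its mean went from 1743 ± 46.2 to 1303 ± 18.6 (-0.42, SE 0.04, adjusted p = 4.22e-06). TK1, the cytosolic thymidine kinase of dividing cells, had counts of 2205, 2094 and 2063 against 1613, 1614 and 1499, a log2 fold change of -0.43 (SE 0.05, adjusted p = 6.65e-06). The lowest control stood 368 above the highest ELF4 siRNA library for TYMS and 449 above it for TK1. DTYMK had counts of 2937, 3210.0 and 2881 in the controls and 2307, 2326 and 2229 after ELF4 siRNA (-0.39, SE 0.05, adjusted p = 1.38e-05), with control replicate 2 the highest. DUT, which also keeps uracil out of DNA by clearing dUTP, had counts of 4500.0, 4473 and 4405 against 3594, 3491 and 3619 (-0.32, SE 0.04, adjusted p = 1.14e-05), with little spread inside either group. The 95% intervals of these 4 fold changes overlapped, from -0.53 to -0.33 for TK1 at one end and from -0.40 to -0.24 for DUT at the other.

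TK2, the mitochondrial thymidine kinase that works outside S phase, rose from 91.2 ± 2.48 to 120.2 ± 9.72 (0.39, adjusted p = 0.00642). The log2 ratio of TK1 over TK2 dropped by 0.82, from 4.45 to 4.62 in the controls to 3.52 to 3.86 after ELF4 siRNA, with no overlap (exact permutation p = 0.1, adjusted p = 0.167).

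The genes of UMP synthesis did not move together. CAD, which fuses the opening enzyme activities of the pathway in 1 protein, had counts of 6828, 7012 and 6471 in the controls and 7498, 7629 and 6824 after ELF4 siRNA. ELF4 siRNA replicate 3 lay inside the control range and the other two lay above it. The log2 fold change was 0.11 with a 95% interval of 0.01 to 0.21 (adjusted p = 0.0744), so a fall of the size seen in the 7 other enzymes lay outside the interval. The call depended on the settings. CAD passed as higher with edgeR on the recovered reads (adjusted p = 0.0473) and with the replicate number as a block (0.0129). It also passed without control replicate 2 (0.0347) and without ELF4 siRNA replicate 3 (0.0112). The same held with DESeq2, with values scaled to the library totals and with upper-quartile scaling. DHODH, which oxidises dihydroorotate, had the fewest reads of the 9, at 359 to 489 per library. Its counts were 382.5, 410.1 and 346 in the controls and 427, 423 and 407 after ELF4 siRNA, a log2 fold change of 0.15 (95% interval -0.01 to 0.30, adjusted p = 0.116). It passed as higher without control replicate 2 (adjusted p = 0.0348) and with upper-quartile scaling. The log2 ratio of CAD over DHODH differed by -0.03 between the groups, which overlapped (exact permutation p = 0.5).

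UMPS, the bifunctional enzyme that ends the pathway by making UMP, fell. Its counts were 2138, 2148 and 2220.1 in the controls and 1770.2, 1800.4 and 1683 after ELF4 siRNA (-0.31, SE 0.04, adjusted p = 6.77e-05). To set UMPS directly against the other two genes of its pathway, 2 more ratios were computed after these values were seen. The log2 ratio of UMPS over CAD was -1.71 to -1.54 in the controls and -2.08 to -2.02 after ELF4 siRNA, a drop of 0.42. That of UMPS over DHODH was 2.39 to 2.68 against 2.05 to 2.09, which dropped by 0.45. The groups did not overlap in either ratio, and the exact permutation p was 0.1 for both. Since the counts of the 3 genes were already known, this separation is a description and tests nothing further.

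**Figure D2:**
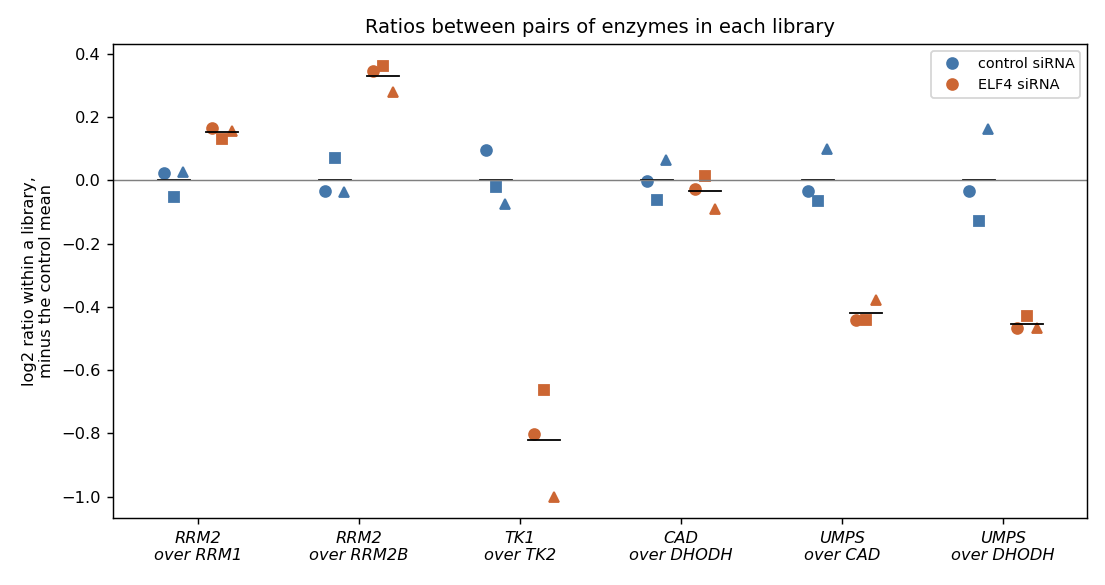
Log2 ratio of paired enzymes within each library, minus the mean of the control libraries (y axis). Circles, squares and triangles are replicates 1, 2 and 3, and short lines are group means. The groups overlap for CAD over DHODH and are apart in the other 5 ratios, the last 2 of which were chosen after the values were seen.

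**Figure D3:**
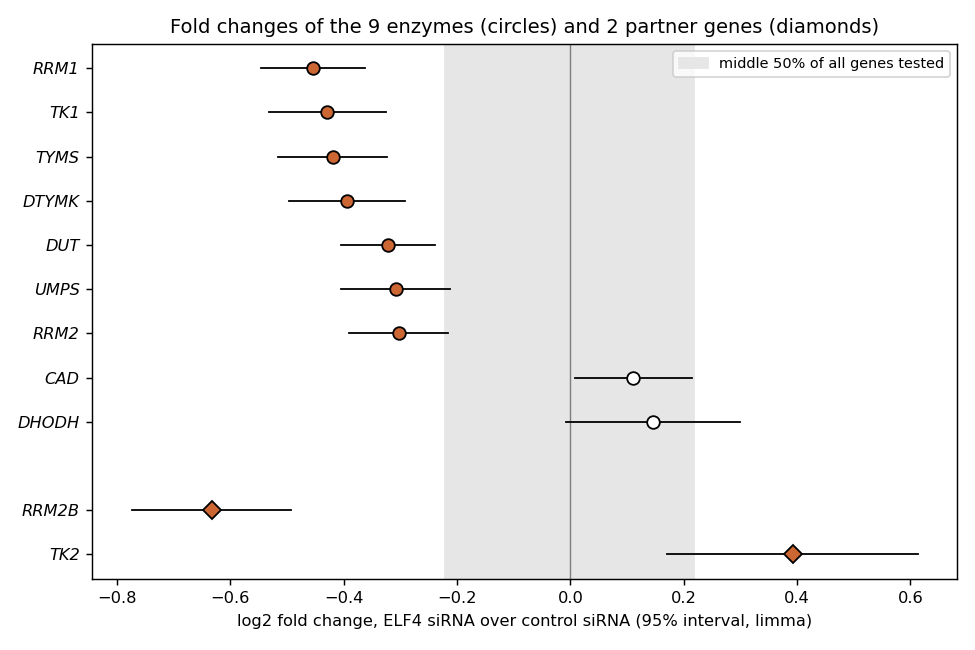
Log2 fold change, ELF4 siRNA over control siRNA (x axis), with the 95% interval from limma for the 9 enzymes (circles) and the partner genes RRM2B and TK2 (diamonds). Filled symbols passed an adjusted p of 0.05, and the grey band holds the middle 50% of all genes tested. The 7 falls lie between -0.45 and -0.30, and CAD (0.11) and DHODH (0.15) lie on the other side of 0.

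Levels of different genes were compared per kilobase of 1 GENCODE 29 transcript each. In the controls RRM2 was the highest, with a level of 2915 ± 49.9 per kilobase, then DTYMK with 2443 ± 143 and DUT with 2077 ± 22.7. RRM1 (1366 ± 18.4) and TK1 (1303 ± 45.8) were next, their libraries touching at 1355 for the lowest RRM1 and 1354 for the highest TK1. TYMS had a level of 1049 ± 27.8 and CAD of 932 ± 37.8, and UMPS (322 ± 6.67) and DHODH (157 ± 13.2) were far lower. After ELF4 siRNA the levels per kilobase of CAD, RRM1 and TK1 were 1007 ± 59.5, 997 ± 42.5 and 968 ± 40.7, and TYMS was below them at 784 ± 11.2. With all annotated exons as the length, TK1 stood above RRM1 (1139 against 1006) and CAD above TYMS (804 against 706) in the controls. On that length DTYMK and DUT were close, at 1228 against 1214 in the controls and 933 against 971 after ELF4 siRNA. The order of these neighbours therefore depends on the transcript length used.

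Reads of some members could be shared with other genes. No row that joins several gene names contains a member. In GENCODE 29, TYMS shares 967 exon bases, 39.1% of its annotated exon sequence, with ENOSF1 on the opposite strand, and the strand setting of the counting is not given. ENOSF1 had a mean count of 455 ± 12.9 in the controls and 493 ± 29.4 after ELF4 siRNA (0.12, adjusted p = 0.16), and was not called. RRM2 shares 1077 exon bases with a transcript model on the same strand that has no row, and DUT shares 533 with an antisense one. The pseudogene RRM2P3 had 137 ± 14.5 in the controls and 109 ± 11.1 after ELF4 siRNA, a called fall (-0.32, adjusted p = 0.0318). It was left at 80.0% of its control level, near the 81.1% of RRM2, and whether the 2 share reads was not tested. RRM2P2, DUTP2 and DUTP6 had fewer than 10 in each library. All these pseudogenes were far below their parent genes.

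Other genes of nucleotide metabolism included falls and rises, as did all genes tested (24.4% fell and 20.7% rose). Of 35 other genes of pyrimidine and deoxynucleotide metabolism, 32 were tested, of which 13 fell, 5 rose and 14 were not called, with a median log2 fold change of -0.11. By the smallest adjusted p the falls were led by CTPS1 (-0.44), which makes CTP from UTP, RRM2B, and DCTPP1 (-0.43), which removes modified deoxycytidine triphosphates. The rises were led by NT5E, the ecto-5′-nucleotidase CD73, which went from 2593 ± 147 to 6145 ± 515 (1.24, adjusted p = 2.76e-09), UCKL1 (0.31), a gene related to the uridine-cytidine kinases, and UPB1 (0.41), which acts in pyrimidine breakdown. DCK, the deoxycytidine kinase of the salvage pathway, fell from 1037 to 663 (-0.64, adjusted p = 3.44e-05) and is named after its value was seen.

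The purine and folate lists also held genes of both directions, and their counts are read against the same shares over all genes. Of 24 tested purine genes 10 fell, 3 rose and 11 were not called, with a median of -0.10. IMPDH1, an isoenzyme of the step that commits IMP to guanine nucleotides, fell from 4831 ± 78.8 to 2005 ± 42.2 (-1.27, adjusted p = 1.57e-10), while the other isoenzyme, IMPDH2, rose from 4727 ± 79.5 to 5409 ± 270 (0.19, adjusted p = 0.00225). AK4, a mitochondrial adenylate kinase, fell by 1.12 on the log2 scale, and PRPS1, which makes the ribose donor of both purines and pyrimidines, by 0.42. APRT, which salvages adenine, rose (0.43), as did ADSS (0.15), a gene of AMP synthesis. Of 25 folate and one-carbon genes 8 fell, 4 rose and 13 were not called, with a median of -0.06, and these counts are near the shares over all genes. FPGS (-0.43) and GGH (-0.41), which add and remove the glutamate tail of folates, were among the leading falls, and ALDH1L2 (0.39) and FTCD (0.72, from a mean of 19.7) among the leading rises.

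**Figure D4:**
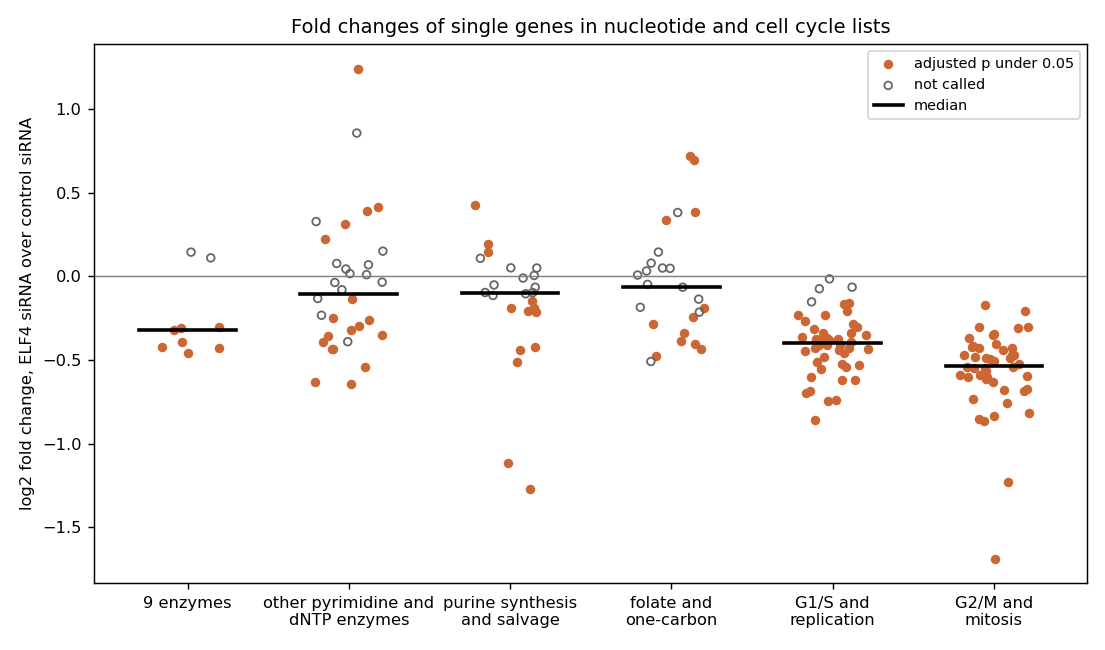
Log2 fold change of single genes (y axis) in the 9 enzymes, the other nucleotide and folate lists and the cell cycle lists. Filled points passed an adjusted p of 0.05, open points did not, and black lines are medians, which are -0.32, -0.11, -0.10, -0.06, -0.40 and -0.53 from left to right.

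Genes of DNA replication and mitosis, which mark dividing cells, moved with the 7 enzymes. Of 47 G1/S and replication genes without nucleotide enzymes 43 fell and 0 rose, with a median of -0.40. All 46 G2/M genes fell, with a median of -0.53. Over all genes tested 24.4% fell and 20.7% rose. The summed normalised count of the G1/S list was 146501 to 147945 in the controls and 108775 to 116269 after ELF4 siRNA, and that of the G2/M list 205820 to 210885 against 138640 to 142276. Their part in the falls of the enzymes was not tested, and in bulk RNA fewer cells in S phase and less RNA per cell cannot be told apart.

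Among the 5 genes whose log2 values, centred over the 6 libraries, lay nearest to those of RRM2 among 13047 tested genes whose mean was 100 or more were GPAM, CCDC41, PDCD6IP and NSUN2. Their Euclidean distances to RRM2 were 0.035 to 0.039 on the log2 scale, and their fold changes were -0.31 to -0.29. They were chosen for this likeness, so their fold changes are a description.

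None of the 9 enzymes carried the 7-base sequences ACCTGTC or CCTGTCA in the 3′ UTR of its GENCODE 29 transcript. These 7-mers were picked earlier in the same data for their association with lower values. Their presence or absence in genes of these data is therefore a description and tests nothing. At least 1 of them was present in 18.1% of the 12464 tested genes with an annotated 3′ UTR. The 3′ UTRs of the 9 enzymes ran from 385 bases (DTYMK) to 5189 bases (UMPS), and the median over tested genes was 1144.5 bases. RRM2B, IMPDH1 and AK4, which fell more than any of the 9 enzymes, each held 1 match, but so did TK2, which rose, and NT5E, which rose, held both 7-mers. The 3′ UTRs of these genes had 3631 (RRM2B), 730 (IMPDH1), 5968 (AK4), 3965 (TK2) and 1774 (NT5E) bases. The part of 3′ UTR length in these matches was not tested.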

How the data were processed

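The deposited table holds a signal per gene, a normalised read count made by the authors. TopHat, featureCounts, DESeq2 and hg19 are named per the submitters' processing notes; no source used here gives their versions, the annotation, the strand setting or filters. Each value was a whole multiple of the value of 1 read in its library within 0.001 (100% of values), which gave back the whole reads.

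Genes reaching a value of 10 in 3 or more libraries entered limma on log2(value + 1) with a trend, without covariates, and p-values were Benjamini-Hochberg adjusted over 20339 genes. This main test was chosen because the values are normalised; edgeR and DESeq2 on recovered reads were alternatives, and called 9261 and 7521 genes where limma called 9173. Ratios within libraries were compared with exact permutation tests. The members, gene lists and ratios were chosen with earlier results of these data known. Named genes are the members, partners in ratios, ELF4, the up to 3 genes with the smallest adjusted p per direction in 3 metabolic lists, and the 5 nearest to RRM2; a few items so chosen are not reported here. In data simulated for the comparison of the ELF4 and control siRNA libraries (20353 genes), 100 genes were changed by 0.5 and 98 by 1 on the log2 scale. Of these limma found 66% and 89.8%, and it called 6 unchanged genes. The simulation gave all genes a common dispersion and changed few of them, whereas 45.1% of genes were called in the data. These shares may therefore not carry over to the data. Coordinates are GRCh38.p14, not the hg19 of the counts. Fits ran in R 4.3.3 (limma 3.58.1, DESeq2 1.42.0, edgeR 4.0.16), and the rest in Python 3.11.15 (pandas 2.3.3, numpy 2.4.6, matplotlib 3.10.9, scipy 1.17.1).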

Additional observations from a re-analysis of the deposited data

How the results depend on the processing

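The 7 falls passed under all 17 alternatives, and no value of a member reversed. The number of the 9 enzymes that rose, 0 in the main test, was 1 with values scaled to the library totals (CAD, log2 fold change 0.12), with edgeR (CAD, 0.12), with DESeq2 (CAD, 0.12) and with the replicate block (CAD, 0.11), and 2 with upper-quartile scaling (CAD, 0.18; DHODH, 0.21), which moved the median of all tested genes to 0.06. Leaving out 1 library gave 0 to 2, with CAD at 0.079 to 0.16 and DHODH at 0.081 to 0.20. CAD was called without control replicate 2 or ELF4 siRNA replicate 3, and DHODH without control replicate 2; the causes were not tested. Rises among the other pyrimidine genes numbered 8 with upper-quartile scaling in place of 5, and rises among folate genes 2 with DESeq2 in place of 4. All 56 values of the ratios moved by less than the spread between libraries. Of the other named genes, ADSS and FTCD lost their call in 4 of the 335 values computed for such genes: ADSS without the trend (adjusted p = 0.0718), without ELF4 siRNA replicate 1 (0.0604) or 2 (0.0697), and FTCD with DESeq2 (0.052). Upper-quartile scaling called 5479 rises and 3938 falls over all genes, against 4217 and 4956. Same-numbered libraries had correlations of their deviations of 0.04, 0.26 and 0.13, against -0.28 to 0.15 for libraries of unlike number. Of the 6 libraries, 4 correlated best with their own number, which does not settle whether the numbers pair the libraries. The labels state no pairing, so the main test was unpaired. The replicate block called 4564 rises and 5346 falls over all genes. Depth limits DHODH most, at 359 to 489 reads per library.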
